A study of Mus musculus with 2 samples.

Results

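The neuronal cytoskeleton genes Nefl, Nefm, Nefh, Ina, Tubb3, Dcx, Map2, Mapt and Stmn2 were followed across cell classes of the mouse dentate gyrus. They were taken by gene symbol from the feature lists of both libraries, where each of the 9 symbols has 1 row among 32285 genes. Single cells were dissociated from dentate gyri at postnatal day 5 and profiled with 10x Genomics 3' chemistry (v3). One library came from wild type mice (control) and the other from mice labelled Setdb1_cKO, a conditional knockout of the H3K9 methyltransferase gene Setdb1. No source used here gives the Cre driver, the deleted exons, the number of animals per library or other alleles of either group. Kept control cells had 3105 Setdb1 UMIs, or 42.7 CPM, and kept Setdb1_cKO cells 1562 UMIs, or 20.5 CPM. A UMI (unique molecular identifier) stands for 1 captured RNA molecule, and CPM is the number of UMIs of a gene in every 1000000 UMIs of the cells summed.

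Neurofilaments are the intermediate filaments of neurons. The light, medium and heavy chains (Nefl, Nefm, Nefh) assemble with alpha-internexin (Ina), and they accumulate as axons grow and mature. Microtubules of young neurons are built with beta-III tubulin (Tubb3), are bound by doublecortin (Dcx) in migrating neurons, by Map2 mainly in dendrites and by tau (Mapt) mainly in axons, and are kept dynamic in growth cones by stathmin-2 (Stmn2). In the dentate gyrus these genes serve as stage markers between radial glia and granule neurons.

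The control library held 14397 barcodes with 82393428 UMIs and the Setdb1_cKO library 12060 barcodes with 87845965 UMIs, of which 10809 and 9375 cells were kept, with medians of 5932 and 6977 UMIs. Xist had 16 UMIs in control and 94176 in Setdb1_cKO, and the Y-linked gene Ddx3y 4177 and 0, so genotype and sex cannot be told apart. This applies in particular to Dcx, which lies on the X chromosome. The 2 libraries shared 68 barcode sequences, and 39 of these were kept in both. Each genotype had 1 library. No test between genotypes was therefore made, differences are between these libraries, and every 95% interval covers counting error only.

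Cells were assigned to 16 classes by the number of marker genes detected, with lists that hold none of the 9 genes, and a class name means only that the cells resemble that type by these markers. In control, 28.1% of kept cells fell in no class, and in Setdb1_cKO 23.3%. The classes used most here were radial glia (675 control and 346 Setdb1_cKO cells), intermediate progenitors (995 and 511), neuroblasts (2874 and 3240), immature granule neurons (182 and 496) and Cajal-Retzius cells (415 and 379), early-born neurons that secrete reelin. In neuroblasts the granule lineage gene Prox1 stood at 1210.5 and 948 CPM. A further class of 62 and 91 cells was gated on markers of pyramidal or mossy neurons, such as Neurod6. Its 10 leading genes by fold held none of those markers in control and 1, Spock1, in Setdb1_cKO. In both libraries they held 1 marker of another class, Fxyd7. The class is therefore left unnamed and called the Slc17a7 neurons after a leading gene. Only 16 control and 42 Setdb1_cKO cells passed as granule neurons.

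Each level is the CPM of a class as a whole, and it is compared across classes within 1 gene. A gene counted as measured in a class with at least 30 UMIs over both libraries, and as higher or lower with at least a 1.5-fold ratio of Setdb1_cKO to control.

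**Figure D1:**
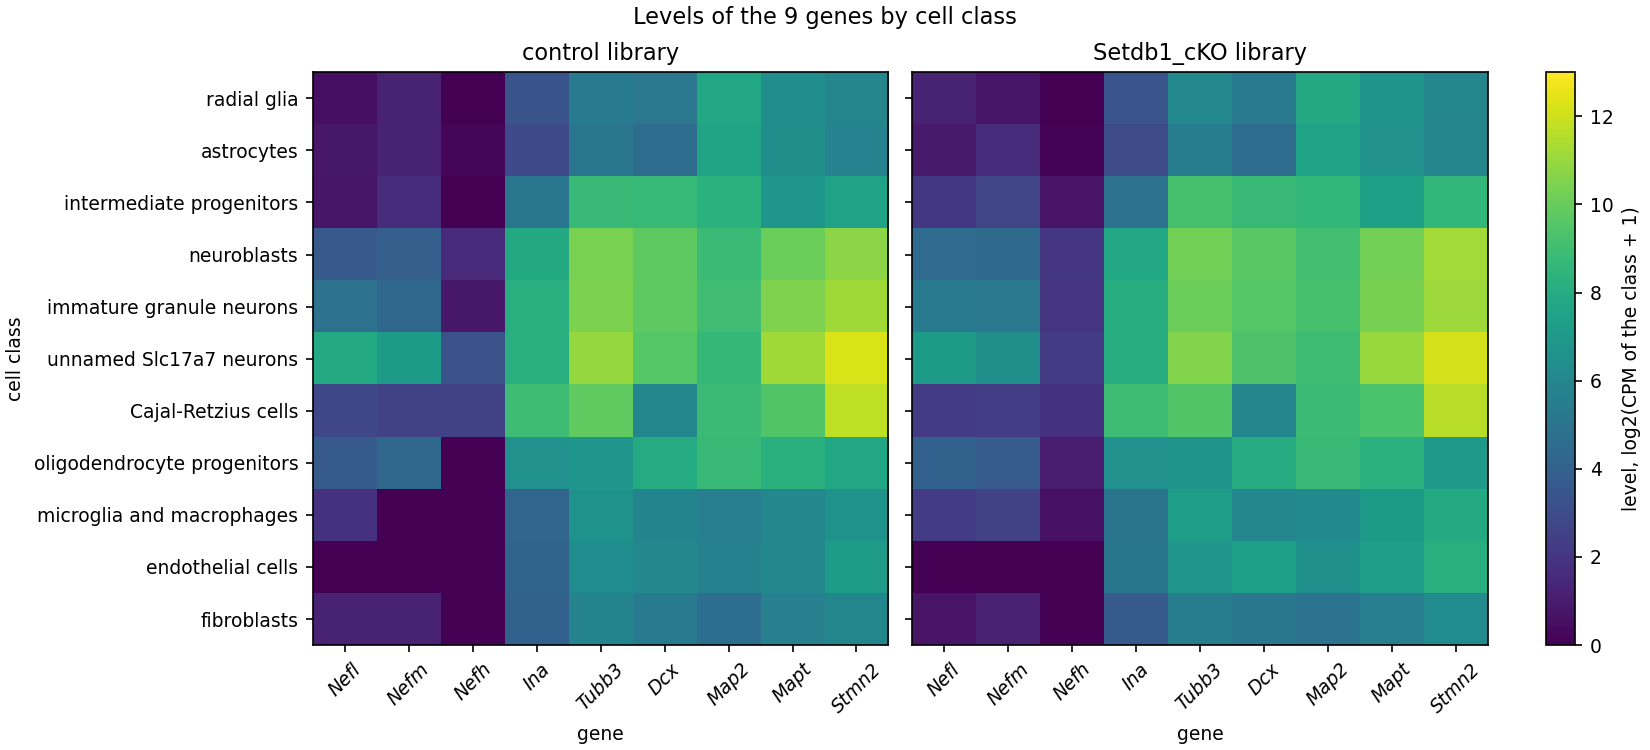
Level of each of the 9 genes (columns) in 11 cell classes (rows), as log2(CPM + 1) of the UMIs summed over a class, in control (left) and Setdb1_cKO (right). Among these 11 classes the neurofilament chains Nefl and Nefm are low outside the Slc17a7 neurons, and Nefh is low in all 11. Ina is highest in Cajal-Retzius cells, and Dcx is low there in both libraries. The few granule neurons, where Nefl was at 424 and 178 CPM, are not drawn.

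Nefl encodes the light chain on which neurofilament assembly depends (ENSMUSG00000022055, mm10 chromosome 14, 68083863 to 68089095, forward strand). In control it was at 249 CPM in Slc17a7 neurons, 27.6 in immature granule neurons, 11.5 in neuroblasts, 0.716 in intermediate progenitors and 0.473 in radial glia. In Setdb1_cKO the same classes were at 137, 38.4, 22.3, 3.24 and 1.47 CPM. In both libraries the level therefore stepped up from progenitors to neuroblasts to immature granule neurons, and the Slc17a7 neurons stood above all of these, with no overlap of the intervals from neuroblasts upward. These intervals leave out the spread between cells: in control, 10 immature granule neurons held 86.1% of the 36 Nefl UMIs of that class. With each cell thinned to 2000 UMIs, 1.26% of control neuroblasts and 1.65% of immature granule neurons held a Nefl UMI (unthinned 3.51% and 8.24%). In Setdb1_cKO the thinned shares were 2.85% and 4.84% (unthinned 9.97% and 19.6%). The thinned intervals of the 2 classes overlapped in both libraries. The 16 control and 42 Setdb1_cKO granule neurons were at 424 and 178 CPM, above the Slc17a7 neurons in control and with overlapping intervals in Setdb1_cKO. Nefl was among the 10 leading genes of the Slc17a7 neurons in both libraries, so its high level there also describes which cells the gate took.

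Nefm encodes the medium chain (ENSMUSG00000022054, chromosome 14, 68082590 to 68124846, reverse strand). Its annotated span contains Nefl on the opposite strand, and because no source used here states whether counting used the strand, reads of Nefl and Nefm could in part have been exchanged. In Slc17a7 neurons Nefm stood at 133 and 88.0 CPM, and in the 16 and 42 granule neurons at 210 and 57.3 CPM. It was at 19.1 and 34.9 CPM in immature granule neurons, 14.1 and 21.3 in neuroblasts, while intermediate progenitors had 2.27 and 5.47 CPM. The intervals of immature granule neurons and neuroblasts overlapped in control but not in Setdb1_cKO. Oligodendrocyte progenitors, the glia that later form myelinating cells, held Nefm at 19.4 and 12.2 CPM, and in both libraries their interval overlapped that of neuroblasts. Neither chain had a UMI in endothelial cells of either library. In microglia and macrophages Nefl had 4 and 8 UMIs (2.66 and 3.99 CPM) and Nefm 0 and 10 (4.99 CPM in Setdb1_cKO). In Setdb1_cKO the intervals of intermediate progenitors overlapped those of microglia and macrophages for both chains.

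Nefh, the heavy chain added late in axon maturation (ENSMUSG00000020396, chromosome 11, 4938754 to 4948064, reverse strand), was near its detection limit at this age. It had 73 UMIs in all kept control cells and 138 in all kept Setdb1_cKO cells. It was at 8.31 and 3.76 CPM in Slc17a7 neurons (10 and 8 UMIs), 4.65 and 2.65 CPM in Cajal-Retzius cells (15 and 9 UMIs), and 2.03 and 3.13 CPM in neuroblasts (33 and 75 UMIs). Granule neurons, the class with the highest level in both libraries, rested on 4 UMIs in each. The intervals of Cajal-Retzius cells overlapped those of Slc17a7 neurons and of neuroblasts in both libraries. Radial glia had 0 UMIs of Nefh in both libraries, which allows a level of up to 0.709 CPM in control and 1.10 in Setdb1_cKO (3 UMIs).

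Ina, alpha-internexin, is the neuronal filament that appears before the other chains (ENSMUSG00000034336, chromosome 19, 47014698 to 47025327, forward strand, overlapping Nt5c2 on the other strand). Unlike the 3 neurofilament chains it was highest in Cajal-Retzius cells, at 500.004 CPM in control and 489.7 in Setdb1_cKO. The few granule neurons held 299 and 347 CPM, Slc17a7 neurons 293 and 276, immature granule neurons 291 and 269.9, and neuroblasts 235 and 223. Slc17a7 neurons and immature granule neurons did not differ beyond their intervals, while Cajal-Retzius cells lay above both and neuroblasts below both with no overlap. In intermediate progenitors Ina was at 33.2 and 27.3 CPM, beside 18.0 and 31.0 CPM of microglia and macrophages, a class that should lack it. After thinning each cell to 2000 UMIs, 60.3% of control and 64.3% of Setdb1_cKO Cajal-Retzius cells held an Ina UMI, against 4.18% and 4.65% of microglia and macrophages (unthinned 92.0% and 93.7% against 7.81% and 11.6%).

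Tubb3 (ENSMUSG00000062380, chromosome 8, 123411424 to 123422015, forward strand) shares its span with the annotated gene Gm20388 on the same strand. It was at 40.9 and 69.0 CPM in control and Setdb1_cKO radial glia, 427 and 592 in intermediate progenitors, and then 1352 and 1205 in neuroblasts and 1362 and 1082 in immature granule neurons. In CPM the larger step thus lay between intermediate progenitors and neuroblasts, but as a fold the larger step lay between radial glia and intermediate progenitors. In control the neuroblast and immature granule neuron intervals overlapped, while in Setdb1_cKO immature granule neurons were lower with no overlap. Slc17a7 neurons were highest, at 1985 and 1494 CPM. Microglia and macrophages, which should lack the gene, were at 97.1 and 149 CPM, above radial glia in both libraries. In that class 10 cells held 48.6% and 59.4% of the Tubb3 UMIs. Fibroblasts, which should lack it too, were at 55.3 and 43.8 CPM. The fibroblast interval overlapped that of radial glia in control and lay below it in Setdb1_cKO.

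Dcx, the microtubule-binding protein of migrating neurons (ENSMUSG00000031285, chromosome X, 143855842 to 143933311, reverse strand), was no higher in immature granule neurons than in neuroblasts beyond the intervals. It was at 34.3 and 41.9 CPM in radial glia, 425 and 456 in intermediate progenitors, and then 884 and 803 in neuroblasts and 888 and 756 in immature granule neurons. Slc17a7 neurons were lower than neuroblasts, at 764 and 662 CPM. Cajal-Retzius cells stood apart from the other neurons, at 62.6 and 60.4 CPM, and their intervals overlapped those of microglia and macrophages (57.8 and 64.9 CPM) in both libraries. In Cajal-Retzius cells the 10 cells with most Dcx UMIs held 32.7% of them in control and 39.5% in Setdb1_cKO. Oligodendrocyte progenitors carried Dcx at 253 and 268 CPM, well above microglia and macrophages.

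The promoters of Ina, Tubb3 and Dcx are shown because these 3 genes part ways in Cajal-Retzius cells, where Ina was highest, Tubb3 high and Dcx at background. The RefSeq table (GRCm38.p6, the assembly also called mm10) gives 250 bases before the start for 4 of the 9 genes, those 3 and Map2. These RefSeq starts differ from the ends of the gene spans printed in this text, and the Tubb3, Dcx and Map2 windows run into those spans. Capitals mark matches, on either strand, to GGGCGG (a GC box), CCAAT (the box of that name), TATAAA (a form of the TATA box) or CAGCTG (an E-box), and no 2 matches overlap.
Ina, chr19:47014431-47014680, forward strand: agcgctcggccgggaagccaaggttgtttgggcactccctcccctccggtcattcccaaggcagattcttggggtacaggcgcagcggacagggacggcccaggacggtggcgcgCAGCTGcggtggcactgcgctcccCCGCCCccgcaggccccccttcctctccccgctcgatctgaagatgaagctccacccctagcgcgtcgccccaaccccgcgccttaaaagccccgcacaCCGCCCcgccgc
Tubb3, chr8:123411303-123411552, forward strand: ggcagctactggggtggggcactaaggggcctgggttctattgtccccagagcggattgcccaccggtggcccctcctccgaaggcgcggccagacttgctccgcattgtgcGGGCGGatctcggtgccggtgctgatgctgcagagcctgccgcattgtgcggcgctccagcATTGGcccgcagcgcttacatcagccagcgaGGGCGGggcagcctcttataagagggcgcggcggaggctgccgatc
Dcx, the more upstream of 2 annotated starts, chrX:143933220-143933469, reverse strand: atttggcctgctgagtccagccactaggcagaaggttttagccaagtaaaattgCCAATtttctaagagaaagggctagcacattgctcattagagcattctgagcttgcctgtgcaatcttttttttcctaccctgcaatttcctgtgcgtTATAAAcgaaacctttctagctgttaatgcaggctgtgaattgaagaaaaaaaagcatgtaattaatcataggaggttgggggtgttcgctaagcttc
Ina and Tubb3 each hold 2 matches to GGGCGG, a sequence found in 32.7% of 32851 windows of this length, and their GC content is 70.8% and 68.0%. Map2 holds 5 matches at a GC content of 81.2%. The Dcx window has 0 matches to GGGCGG, a GC content of 41.6% and 3 CpG dinucleotides, against medians of 52.4% and 6 over all windows. It holds 1 TATAAA (found in 12.4% of windows), 98 bases before the RefSeq start, and 1 CCAAT (33.8%). Tubb3 also holds 1 CCAAT, written ATTGG here because it lies on the other strand, as the 2 GC boxes of Ina (CCGCCC) do. Ina holds 1 CAGCTG (13.001%). A match describes the letters only and is not a measured site.

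Map2 (ENSMUSG00000015222, chromosome 1, 66175273 to 66442583, forward strand) was already abundant in glia. It was at 211 and 232 CPM in radial glia, 318 and 391 in intermediate progenitors, and then 468 and 539 in neuroblasts and 512 and 599.6 in immature granule neurons. Astrocytes were at 192 and 188 CPM, both glial classes lying above microglia and macrophages (46.5 and 70.9 CPM) in both libraries. Oligodendrocyte progenitors held 441 CPM in each library, with intervals that overlapped those of Cajal-Retzius cells (471 and 457). After thinning, 57.2% and 63.4% of oligodendrocyte progenitors had a Map2 UMI, against 57.8% and 63.5% of neuroblasts and 8.37% and 8.53% of microglia and macrophages. The unthinned shares were 82.6% and 84.8%, 86.9% and 93.7%, and 13.8% and 20.4%.

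Mapt (ENSMUSG00000018411, chromosome 11, 104231390 to 104332090, forward strand) encodes tau. It was at 83.0 and 104 CPM in radial glia, 116 and 165 in intermediate progenitors, and then 1063 and 1193 in neuroblasts and 1443 and 1275 in immature granule neurons. Slc17a7 neurons lay above these at 2272 and 2006 CPM and Cajal-Retzius cells below neuroblasts at 701 and 629 CPM. The order of Slc17a7 neurons, immature granule neurons, neuroblasts and Cajal-Retzius cells was thus the same in both libraries, with no overlap of intervals between them. Oligodendrocyte progenitors were at 308 and 311 CPM, above intermediate progenitors in both libraries.

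Stmn2 (ENSMUSG00000027500, chromosome 3, 8509360 to 8561606, forward strand) overlaps no other annotated gene. Its level was 4875 and 4536 CPM in Slc17a7 neurons and 3427 and 3065 CPM in Cajal-Retzius cells. In the granule lineage it was at 59.8 and 61.3 CPM in radial glia, 179.7 and 391 in intermediate progenitors, and then 1732 and 2367 in neuroblasts and 2276 and 2169 in immature granule neurons. Neuroblasts were below immature granule neurons in control and above them in Setdb1_cKO, with no overlap of intervals in either library.

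**Figure D2:**
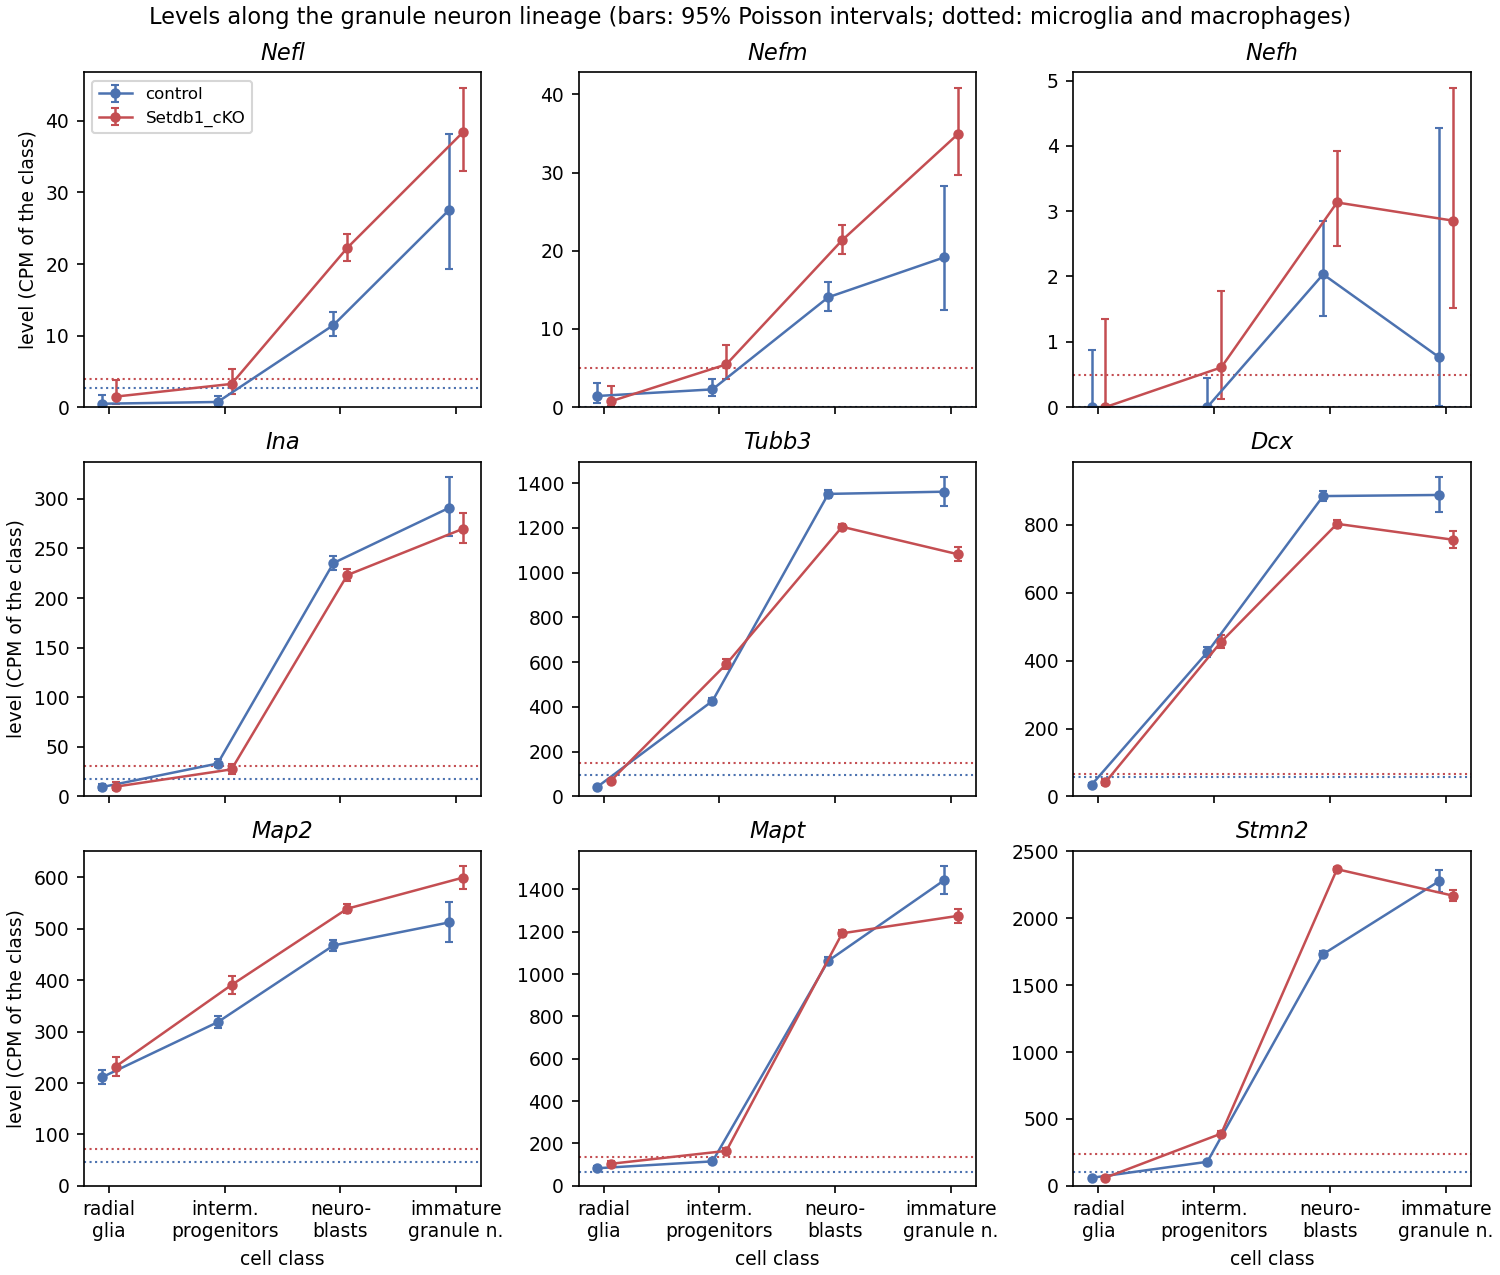
Levels of the 9 genes (CPM of the class, linear axes from 0) in radial glia, intermediate progenitors, neuroblasts and immature granule neurons, with 95% Poisson intervals; blue is control, red Setdb1_cKO and the dotted lines are microglia and macrophages. Nefl and Nefm climb to immature granule neurons, but in control the Nefm intervals of neuroblasts and immature granule neurons overlap. Tubb3 and Dcx level off at neuroblasts in control and fall from neuroblasts to immature granule neurons in Setdb1_cKO. The Stmn2 lines are farthest apart in neuroblasts (1732 and 2367 CPM).

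Neuroblasts of the Setdb1_cKO library held more RNA of all 3 neurofilament chains than those of control. Nefl had 186 control and 533 Setdb1_cKO UMIs (11.5 and 22.3 CPM), a ratio of 1.94 (95% interval 1.64 to 2.31). Nefm had 228 and 511 UMIs, a ratio of 1.52 (1.30 to 1.78), and Nefh 33 and 75 UMIs, a ratio of 1.54 (1.01 to 2.40). So 3 of the 9 measured members were at least 1.5-fold higher and none at least 1.5-fold lower. Of all 13518 genes measured in neuroblasts, 9.31% were that much higher and 6.53% that much lower. The members' median log2 ratio was 0.21 and that of all measured genes -0.05.

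The other filament and microtubule genes differed less in neuroblasts. Stmn2 stood at a ratio of 1.37 (1.35 to 1.39), Map2 at 1.15 (1.12 to 1.19) and Mapt at 1.12 (1.10 to 1.14). Ina was at 0.948 (0.910 to 0.989), Dcx at 0.908 (0.888 to 0.928) and Tubb3 at 0.891 (0.876 to 0.907). Stmn2, Map2 and Mapt were thus somewhat higher and Ina, Dcx and Tubb3 somewhat lower in Setdb1_cKO, all 6 within 1.5-fold. Relative to Tubb3, neuroblasts held 1.28 Stmn2 UMIs per Tubb3 UMI in control and 1.96 in Setdb1_cKO.

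Most neuroblasts had no UMI of Nefl, Nefm or Nefh. After thinning, 1.26% of control neuroblasts (0.885 to 1.74, exact binomial) and 2.85% of Setdb1_cKO neuroblasts (2.31 to 3.49) held a Nefl UMI, and 3.51% and 9.97% did without thinning. For Nefm the thinned shares were 2.28% and 3.07% with overlapping intervals, and for Stmn2 85.8% (84.4 to 87.0) and 91.4% (90.4 to 92.4). The unthinned shares were 5.39% and 10.8% for Nefm, and 95.2% and 98.5% for Stmn2. In microglia and macrophages 0 of 239 control and 0 of 258 Setdb1_cKO thinned cells held a Nefl UMI, which allows shares of up to 1.26% and 1.16% (3 cells), and the control neuroblast share lies close to that limit. Without thinning, 1.49% and 1.36% of that class held a Nefl UMI. Stmn2 was found in 11.7% and 25.6% of microglia and macrophages (unthinned 33.8% and 49.0%). The classes' median depths were 5318 and 6317 UMIs in neuroblasts, and 5282 and 6414 in microglia and macrophages.

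**Figure D3:**
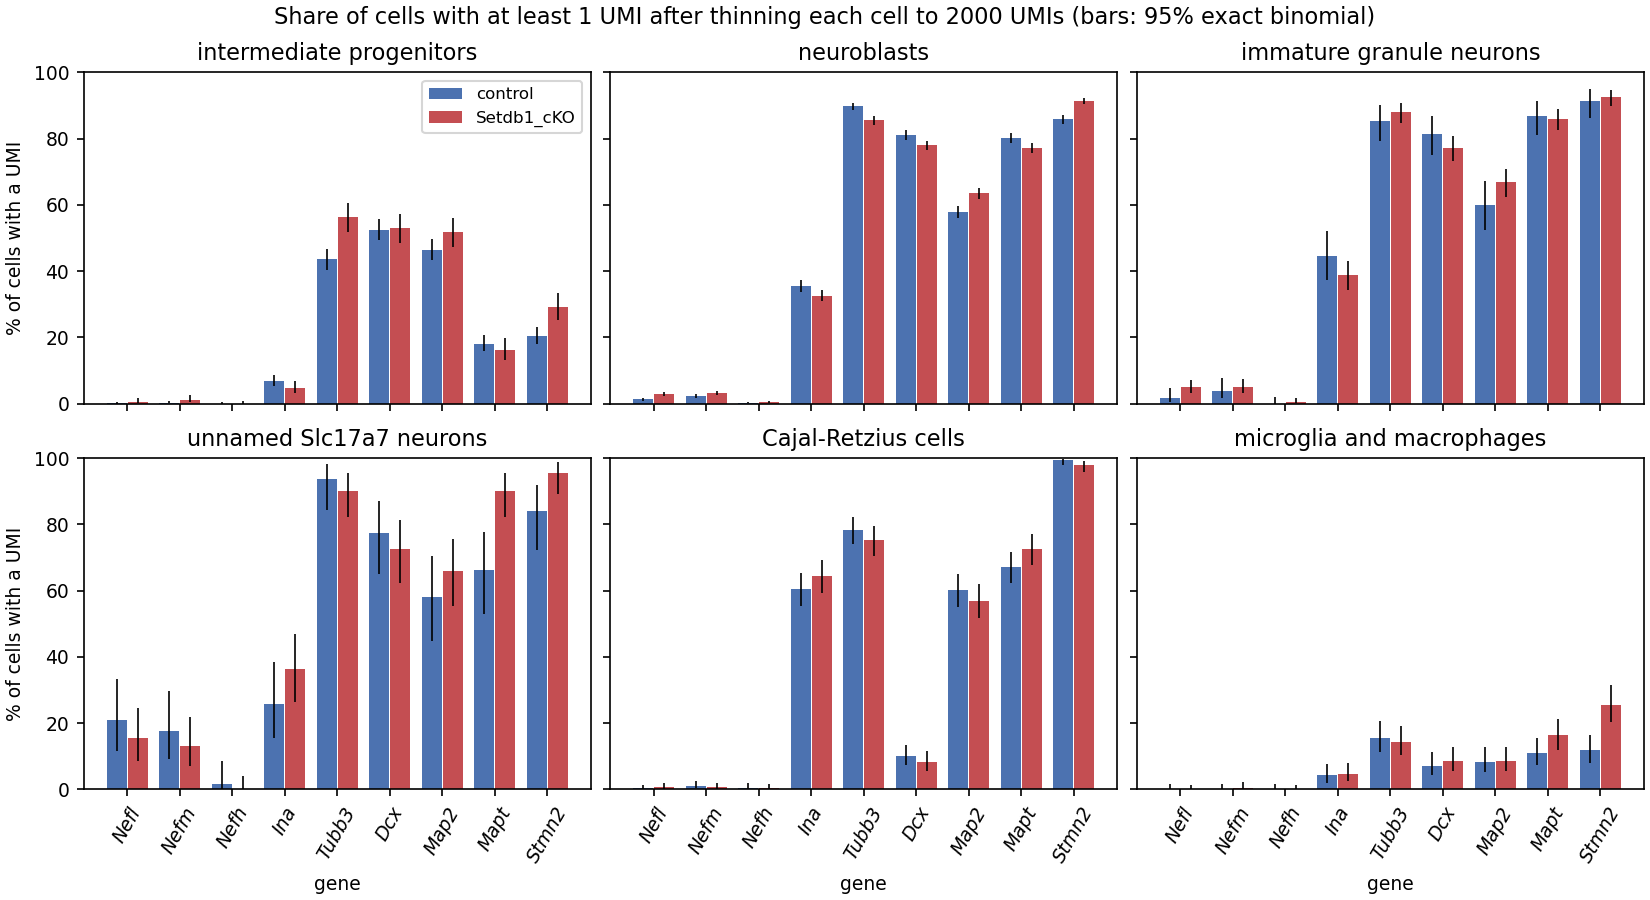
Share of cells with at least 1 UMI of each gene after thinning every cell to 2000 UMIs, in 6 classes, with 95% exact binomial intervals; blue is control and red Setdb1_cKO. Among these 6 classes Nefl and Nefm UMIs are rare in all but the Slc17a7 neurons, where 21.0% of control and 15.4% of Setdb1_cKO cells held a Nefl UMI. Nefh UMIs are rare in all 6 classes. Dcx is rare in Cajal-Retzius cells. The few granule neurons, with Nefl shares of 43.8% and 21.4%, are not drawn.

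A few cells carried much of the Nefl RNA. The 10 neuroblasts with most Nefl UMIs held 41.9% of them in control and 15.8% in Setdb1_cKO, with up to 21 and 11 UMIs in a single cell. Without these 10 cells per library the Nefl ratio was 2.81 and the Nefm ratio (without its own top 10) 1.77.

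The neuroblasts of the 2 libraries also differed in markers of neighbouring stages. The 7 markers of intermediate progenitors summed to 499 CPM in control and 184 in Setdb1_cKO, the 7 neuroblast markers to 10411 and 8005 CPM, the 7 markers of immature granule neurons to 1391 and 1114 CPM, the 7 markers of pyramidal or mossy neurons to 209.6 and 239 CPM, and 9 dissociation and stress genes to 279.7 and 143 CPM. None of the markers of these first 4 lists was at 0. Neuroblasts were therefore also split by how many such markers were detected in a cell, and in every such group the median UMIs per cell were higher in Setdb1_cKO.

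The Nefl difference was seen in neuroblasts without any marker of pyramidal or mossy neurons (1499 control and 1809 Setdb1_cKO cells), at 4.87 and 11.7 CPM, a ratio of 2.41 (1.66 to 3.57). Nefm in these cells was at 7.89 and 13.5 CPM, a ratio of 1.71 (1.25 to 2.34). Stmn2 was at 1339 and 1504 CPM, a ratio of 1.12 (1.10 to 1.15), and Mapt at 889 and 833 CPM, a ratio of 0.937 (0.908 to 0.967). In neuroblasts with 1 to 2 such markers the ratio was 1.49 (1.46 to 1.51) for Stmn2 and 1.23 for Mapt (1216 and 1495 CPM). The higher Mapt level, and the larger of the Stmn2 ratios, thus lay in cells that also held a marker of pyramidal or mossy neurons.

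Among neuroblasts without any marker of intermediate progenitors (329 and 941 cells) Nefl, Nefm and Stmn2 were closer between the libraries. Nefl was at 15.7 and 18.0 CPM, a ratio of 1.14 (0.755 to 1.78), Nefm at 21.1 and 18.0 CPM, a ratio of 0.849 (0.586 to 1.25), and Stmn2 at 2295 and 2319 CPM, a ratio of 1.01 (0.977 to 1.05). In cells with 1 to 2 of these markers (2545 and 2299 cells) the ratios were 2.19 (1.82 to 2.64), 1.72 (1.44 to 2.06) and 1.44 (1.41 to 1.46). Tubb3 was lower in Setdb1_cKO in both groups of cells, at 0.789 and 0.915, and Mapt was at 0.839 and 1.17. In the 176 and 571 cells with no marker of either intermediate progenitors or pyramidal or mossy neurons, Nefl had 1 and 33 UMIs, a ratio of 8.21 (1.37 to 334), Nefm was at 0.995 (0.506 to 2.14) and Stmn2 at 1.18 (1.10 to 1.26). Split by markers of immature granule neurons, the Nefl ratio was 3.43 (2.47 to 4.87) in cells with 1 marker and 1.37 (1.12 to 1.69) in cells with 2. The part that these differences in markers have in the Nefl, Nefm and Stmn2 values was not tested further.

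**Figure D4:**
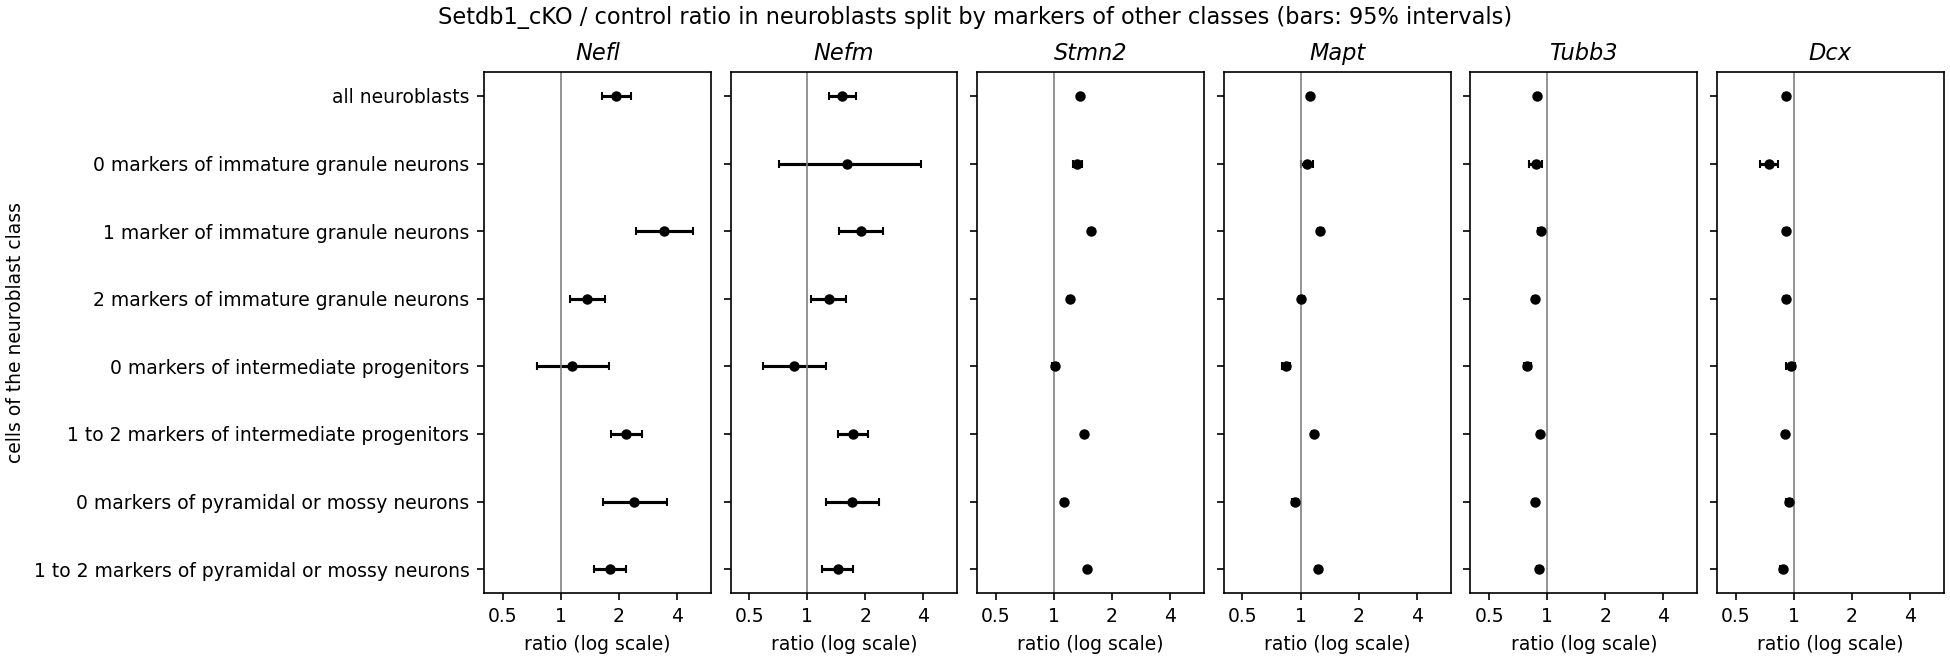
Setdb1_cKO to control ratio of CPM (log scale, 95% intervals, counting error only) for 6 genes in all neuroblasts and in neuroblasts split by the number of markers of other classes they hold; the grey line is a ratio of 1, and no point is drawn under 30 UMIs or with 3 or fewer control UMIs. The Nefl, Nefm and Stmn2 points lie near 1 in cells without markers of intermediate progenitors, while Tubb3 stays below 1 in every row.

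Intermediate progenitors of the Setdb1_cKO library carried more Stmn2. Its 1506 control and 1928 Setdb1_cKO UMIs (179.7 and 391 CPM) gave a ratio of 2.17 (2.03 to 2.33), and Nefm, on 19 and 27 UMIs, a ratio of 2.41 (1.29 to 4.59). These were the 2 of 7 measured members at least 1.5-fold higher, where 5.34% of all measured genes were. None was at least 1.5-fold lower (7.56% of all genes). Nefm stood at 5.47 CPM in Setdb1_cKO, with an interval that overlapped that of microglia and macrophages (4.99 CPM). Mapt was at 1.43 (1.30 to 1.57), Tubb3 at 1.39 (1.32 to 1.46), Map2 at 1.23 (1.16 to 1.30), Dcx at 1.07 (1.02 to 1.13) and Ina at 0.824 (0.666 to 1.02).

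Here too a few cells weighed heavily on Stmn2. The 10 cells with most Stmn2 UMIs held 17.1% of them in control and 44.8% in Setdb1_cKO, and without them, which takes a larger share of the 511 Setdb1_cKO than of the 995 control cells, the ratio was 1.48. Mapt was alike, with 17.7% and 46.1% in its top 10 cells and a ratio of 0.958 without them. In progenitors with at most 3 neuroblast markers (313 and 153 cells) Stmn2 was at 53.5 and 68.7 CPM, a ratio of 1.28 (0.984 to 1.67), and in those with 4 or more (682 and 358 cells) at 237 and 527 CPM, a ratio of 2.23 (2.08 to 2.39). Tubb3 went the other way round, with a ratio of 2.27 (1.95 to 2.65) in the first group, at 116 and 264 CPM, and 1.29 (1.23 to 1.36) in the second. In microglia and macrophages Stmn2 also had a ratio of 2.34 (1.95 to 2.83), at 103 and 242 CPM, levels below those of all intermediate progenitors but above those of the ones with at most 3 neuroblast markers in both libraries. The part of free RNA in the progenitor values was not tested.

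Immature granule neurons showed higher Nefm and lower Tubb3 in Setdb1_cKO. Nefm (25 and 159 UMIs) had a ratio of 1.82 (1.19 to 2.90) and was the 1 of 8 measured members past 1.5-fold, against 8.72% of all genes higher and 6.86% lower. Nefl was at 1.39 (0.969 to 2.06). Tubb3 had a ratio of 0.795 (0.753 to 0.839), Dcx 0.852 (0.797 to 0.911), Mapt 0.884 (0.839 to 0.931), Stmn2 0.953 (0.915 to 0.993), Ina 0.927 (0.826 to 1.04) and Map2 1.17 (1.08 to 1.28). The Nefm value depended on which control cells entered: 10 of the 182 control cells held 80.0% of its UMIs, and with 1 more marker required (12 and 33 cells) the ratio was 0.297. Leaving out the 10 cells per library with most UMIs takes a larger share of the 182 control than of the 496 Setdb1_cKO cells, and gave 6.21. The markers of intermediate progenitors summed to 374 and 169 CPM in this class, those of pyramidal or mossy neurons to 305 and 184 CPM, and those of granule neurons to 13.8 and 34.5 CPM. Their part in the result was not tested.

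In the 62 control and 91 Setdb1_cKO Slc17a7 neurons the neurofilament chains were lower in Setdb1_cKO. Nefl had 300 and 291 UMIs (249 and 137 CPM), a ratio of 0.549 (0.465 to 0.647), and Nefm 160 and 187 UMIs, a ratio of 0.661 (0.533 to 0.822). These were the 2 of 8 measured members at least 1.5-fold lower, where 12.1% of all genes were, and none was higher (7.22% of all genes). Tubb3 was at 0.753 (0.714 to 0.794) and Stmn2 at 0.931 (0.901 to 0.961), with Map2 at 1.19 (1.07 to 1.33). The 10 cells with most Nefl UMIs held 70.3% of them in control and 47.1% in Setdb1_cKO. Without those cells the ratio was 0.835. With 1 more marker required it was 1.15, on 3 control and 9 Setdb1_cKO cells. The share of these cells with a Nefl UMI did not separate the libraries, at 21.0% (11.7 to 33.2) and 15.4% (8.67 to 24.5) after thinning and 53.2% and 62.6% without it. The markers of immature granule neurons summed to 833 and 443 CPM in this class, those of astrocytes to 61.5 and 17.4 CPM, and the median over all measured genes lay at a log2 ratio of -0.14, beside which the members' median was -0.19.

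**Figure D5:**
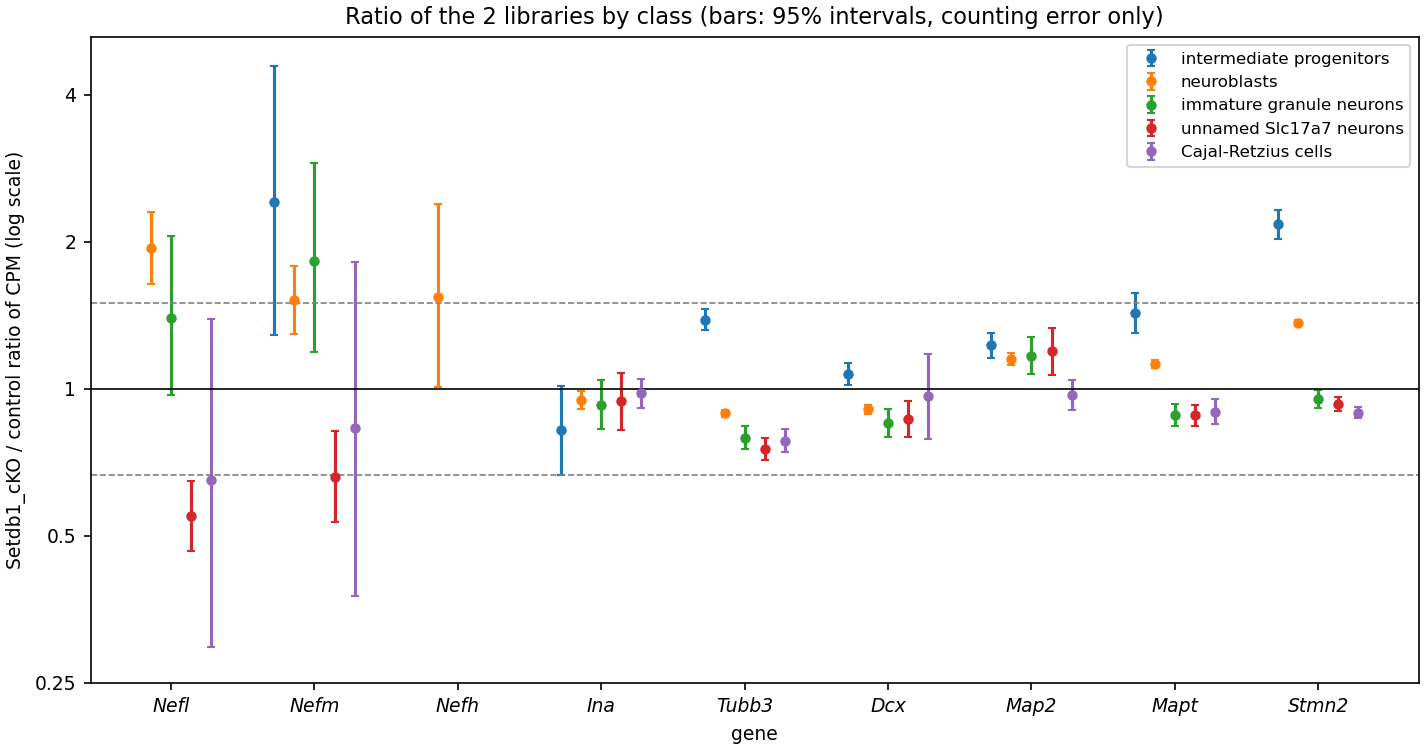
Setdb1_cKO to control ratio of CPM (log scale) for the 9 genes in 5 classes, with 95% intervals that cover counting error only; dashed lines mark 1.5-fold, and genes under 30 UMIs in a class are left out. Nefl and Nefm lie above 1 in neuroblasts and below 1 in Slc17a7 neurons, while Ina and Dcx lie within 1.5-fold in all 5 classes.

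Cajal-Retzius cells of the 2 libraries were within 1.5-fold in the 6 abundant members. Ina had a ratio of 0.979 (0.914 to 1.05), Map2 0.971 (0.904 to 1.04), Dcx 0.965 (0.791 to 1.18), Mapt 0.898 (0.846 to 0.953), Stmn2 0.894 (0.871 to 0.919) and Tubb3 0.783 (0.741 to 0.826). Of 8 measured members 1, Nefl, was past 1.5-fold lower, on 19 and 13 UMIs and with an interval that included 1 (0.295 to 1.39), and none was higher, against 4.74% of all genes lower and 5.23% higher. Of the 19 control UMIs of Nefl, 16 came from a single cell.

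In radial glia 1 of 6 measured members was past 1.5-fold, Tubb3, with a ratio of 1.69 (1.37 to 2.09), where 4.83% of all genes were higher and 8.64% lower. Its level there was below that of microglia and macrophages in both libraries, but above that of fibroblasts in Setdb1_cKO, as given above. In astrocytes 1 of 7 was past it, Nefm, on 16 and 21 UMIs with an interval of 0.760 to 3.13 (7.13% of all genes higher, 6.10% lower). Map2, the only member above microglia and macrophages in both classes and both libraries, had ratios of 1.10 (0.992 to 1.22) and 0.979 (0.920 to 1.04).

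In oligodendrocyte progenitors Stmn2 had a ratio of 0.574 (0.462 to 0.708) and Nefm, on 30 and 12 UMIs, 0.628 (0.293 to 1.26). These were 2 of 8 measured members, where 6.55% of all genes were lower and 4.95% higher. One control cell held 149 of the 334 control Stmn2 UMIs, and without the 10 cells per library with most UMIs the ratio was 0.802. With 1 more marker required (268 and 161 cells) it was 1.18. The markers of pyramidal or mossy neurons summed to 275 and 138 CPM in this class, with 1 and 2 of the 7 at 0. However, 1 of these 7, Pou3f1, was among the 10 leading genes of the control class, so that sum also describes the class itself. The markers of immature granule neurons summed to 212 and 165 CPM. The part of either list in the result was not tested. Map2 (0.999), Mapt (1.01), Dcx (1.06) and Ina (0.970) had intervals that included 1.

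The 16 control and 42 Setdb1_cKO granule neurons gave lower values in Setdb1_cKO for 5 of 8 measured members, where 15.6% of all genes were lower and 13.4% higher. Nefl was at 424 and 178 CPM, Nefm at 210.1 and 57.3, Tubb3 at 1692 and 825, Mapt at 2269 and 1299.7, and Stmn2 at 4089 and 2309.7. Dcx, at 588 and 586 CPM, and Ina, at 299 and 347, were within 1.5-fold. Nefl was among the leading genes of the control cells, and the markers of pyramidal or mossy neurons summed to 548 CPM in control and 260 in Setdb1_cKO, beside 705 and 638 CPM for the granule neuron markers.

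Classes that should lack these genes gave a background level for each library. In microglia and macrophages 5 of 6 measured members were at least 1.5-fold higher in Setdb1_cKO, where 7.23% of all genes were, and none was lower (8.78% of all genes). They were Stmn2, Mapt (2.14), Ina (1.72), Tubb3 (1.53) and Map2 (1.52), and Dcx was at 1.12. With markers read after thinning (236 control and 243 Setdb1_cKO cells) the ratios were 1.09 for Stmn2, 0.921 for Mapt, 0.930 for Ina, 0.640 for Tubb3 and 0.9997 for Map2. The 10 cells with most UMIs held 55.8% of Stmn2 UMIs in Setdb1_cKO and 32.3% in control. The markers of neuroblasts in this class summed to 646 and 674 CPM, and those of pyramidal or mossy neurons to 20.6 and 31.0 CPM. In endothelial cells (102 and 56 cells) 4 of 5 were higher, where 8.68% of all genes were: Dcx (2.42), Mapt (2.33), Stmn2 (2.01) and Map2 (1.76), with none lower (10.4%). Fibroblasts had 0 of 6 past 1.5-fold in either direction (6.84% and 5.96% of all genes), with ratios from 0.782 for Ina to 1.26 for Stmn2. The smallest classes were mural cells, with 1 of 5 members higher (Stmn2) against 10.9% of all genes higher and 21.6% lower, and ependymal cells, with 3 of 5 higher (Tubb3, Mapt and Stmn2) against 20.5% and 12.7%. Erythroid cells had 4 of 6 higher (Ina, Map2, Mapt and Stmn2) against 17.3% and 8.37%. GABAergic neurons, which are no background class (Stmn2 at 3703 and 3171 CPM), had 0 of 6 higher against 10.9% and 9.15%. None of the members was 1.5-fold lower in these 4 classes.

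Over all kept cells each of the 9 genes was higher in Setdb1_cKO, with ratios from 1.16 for Dcx (400.4 and 463 CPM) to 1.80 for Nefh (73 and 138 UMIs). Nefl was at 11.1 and 19.0 CPM and Stmn2 at 898 and 1528. The neuroblast and immature granule neuron classes together held a larger share of the kept cells of the Setdb1_cKO library, and Dcx, Tubb3 and Ina, whose ratios were below 1 within both classes, were above 1 over the whole library. Of the Nefl UMIs, neuroblasts held 23.0% in control and 36.7% in Setdb1_cKO, Slc17a7 neurons 37.0% and 20.04%, and cells of no class 13.2% and 18.3%.

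Other genes of the filament and microtubule system were read from a list of 37. In neuroblasts 34 were measured, of which 3 were past 1.5-fold upward and 2 downward, and their median log2 ratio was -0.05. These counts lie near the shares of all genes given above (9.31% and 6.53%). Gap43, a growth cone protein, was at 336 and 564 CPM, a ratio of 1.68 (1.63 to 1.73), and Map6, which stabilises microtubules against cold, at 56.6 and 93.6 CPM, a ratio of 1.65 (1.53 to 1.79). Synm, an intermediate filament protein, had a ratio of 1.73 (1.37 to 2.19). Vim, the filament of glia and progenitors, was at 44.7 and 25.3 CPM, a ratio of 0.566 (0.507 to 0.631). The other lower gene, named after its values were seen, was the progenitor filament nestin, Nes, at 0.508 (0.354 to 0.726). None of the 8 measured tubulins, 3 stathmins and 6 kinesins of the list was past 1.5-fold in neuroblasts.

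In intermediate progenitors 2 of 35 were higher and 2 lower, against 5.34% and 7.56% of all genes: Map6 (2.23, 1.80 to 2.77), the kinesin Kif3c (1.53, 1.24 to 1.90), Vim (541 and 271 CPM, 0.501, 0.471 to 0.533) and Tubb6 (0.359, 0.169 to 0.697). In radial glia 1 of 35 was higher and 6 lower (4.83% and 8.64% of all genes), among them 3 tubulins, with Tubb2b at 1296 and 831 CPM (0.641, 0.610 to 0.674). Astrocytes had 4 of 37 higher and 4 lower (7.13% and 6.10% of all genes), with the astrocyte filament Gfap at 1034 and 1593 CPM, a ratio of 1.54. In immature granule neurons Vim was again lower (0.421, 0.284 to 0.629), and 1 of 33 was past 1.5-fold in each direction (8.72% and 6.86% of all genes). Slc17a7 neurons had 5 of 33 lower, where 12.1% of all genes were, among them Tubb4b at 321 and 195 CPM and Map1a at 149.7 and 88.9 CPM, and none higher. In Cajal-Retzius cells 4 of 33 were lower, where 4.74% of all genes were, and none higher, with the doublecortin-like kinase Dclk1 at 74.4 and 34.8 CPM (0.468, 0.372 to 0.585).

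The genes whose levels followed each member most closely over the 16 classes were chosen among 12580 genes by the smaller of the Pearson correlations of log2(CPM + 1) in the 2 libraries. Classes share a library and differ in depth and size, so these values are descriptions. For Nefl they were Icam5 (0.891 in control and 0.916 in Setdb1_cKO), Ak5 and Phyhip, and for Nefm Rap1gap2 (0.917 and 0.932), Pcdh20 and Slc6a15. Nefh was nearest to Icam5 (0.922 and 0.905), Rtn4 and Rasgef1a. Icam5 is also one of the markers that gated granule neurons. Ina followed Ank3 (0.964 and 0.967), Celf4 and Shank1. Tubb3 followed Mllt11 (0.988 and 0.978), Rab3a and Cdk5r1, and Stmn2 followed Rab3a (0.981 and 0.990), Mllt11 and Syt1. Mapt was nearest to Stmn4 (0.979 and 0.984), Pclo and Celf5, Map2 to Bex2 (0.951 and 0.951), Ncam1 and Atp6v0e2, and Dcx to Nol4 (0.910 and 0.918), Ralyl and Mir124a-1hg. Among the members, Nefl and Nefm correlated at 0.830 and 0.970, and Dcx and Nefl at 0.555 and 0.739.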

How the data were processed

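The authors deposited 2 matrices of raw UMI counts. The submitters' processing notes list Cell Ranger 7.1.0, Seurat and the build mm10. No source used here gives the annotation, the cell calling or how intronic and antisense reads were treated. Cells were kept with at least 1000 UMIs, 500 genes and at most 10% mitochondrial UMIs. Scrublet (scanpy 1.11.5, expected rate 8%) marked 735 and 694 doublets, which were removed. A cell entered a class by the number of markers detected (neuroblasts 5 of 7, with at most 2 markers of radial glia, 2 of intermediate progenitors and 1 of astrocytes). The numbers of markers required were set after marker counts were seen. Counts were summed per class and scaled to CPM. Ratios carry exact conditional Poisson and shares Clopper-Pearson intervals at 95%. Code was tested on simulated data. The 9 genes and all lists were chosen with earlier results of these data known. Named genes were all 9 members, listed cytoskeleton genes at least 1.5-fold apart whose interval excluded 1, up to 4 per class by level, and 3 most alike genes per member. Coordinates are from GENCODE vM21 (GRCm38).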

Additional observations from a re-analysis of the deposited data

Results flagged for a closer look

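Nefl, Nefm and Stmn2 differed between the libraries in opposite directions in different classes. Nefl had a Setdb1_cKO to control ratio of 1.94 in neuroblasts and 0.549 in the unnamed Slc17a7 neurons. Nefm was at 2.41 in intermediate progenitors, 1.52 in neuroblasts and 1.82 in immature granule neurons, and at 0.661 in Slc17a7 neurons. Stmn2 was at 2.17 in intermediate progenitors and 0.574 in oligodendrocyte progenitors. Several of these values depend on which cells are counted: Nefm in neuroblasts was at 0.849 in cells without markers of intermediate progenitors, and with 1 more marker required Nefm in immature granule neurons was at 0.297, Nefl in Slc17a7 neurons at 1.15 and Stmn2 in oligodendrocyte progenitors at 1.18. With 1 library per genotype, the difference between classes was not tested.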

How the results depend on the processing

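Each ratio and count was recomputed with looser and stricter cell filters, doublets kept, 1 more marker required, markers read after thinning, scaling by the median ratio, every cell weighted the same, a minimum of 10 UMIs and a threshold of 2-fold. Splits by markers and leaving out the 10 cells with most UMIs were added after seeing the data. Of 591 recomputed ratios 428 stayed within the counting interval of the value given, 153 moved beyond it, and 10 that had been past 1.5-fold with an interval excluding 1 fell on the other side of 1. Over all ratios, those near 1 included, 69 of 591 did so. The Nefm ratio in neuroblasts was 0.849 in cells without markers of intermediate progenitors, and 0.995 in those that also had none of pyramidal or mossy neurons. In immature granule neurons it was 0.297 with 1 more marker and 0.469 with thinned markers. With 1 more marker, Nefl in Slc17a7 neurons was at 1.15 and Stmn2 in oligodendrocyte progenitors at 1.18. With thinned markers, microglia and macrophages gave 0.930 for Ina, 0.640 for Tubb3, 0.9997 for Map2 and 0.921 for Mapt. The causes were not tested.

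Counts of members past the fold moved by over 1.5 times as follows. At 2-fold, 0 were higher in radial glia, astrocytes, neuroblasts and immature granule neurons, and 0 lower in Slc17a7 neurons and Cajal-Retzius cells. With 1 more marker, 0 were higher in radial glia, astrocytes and immature granule neurons, where 3 were lower. In Slc17a7 neurons 1 was higher and 0 lower, and in Cajal-Retzius cells 0 lower. With thinned markers, 0 were higher in astrocytes and immature granule neurons (2 lower), 1 higher and 0 lower in Slc17a7 neurons, and 0 lower in Cajal-Retzius cells. The stricter filter gave 0 higher in astrocytes, 2 higher in immature granule neurons and 0 lower in Slc17a7 neurons. Weighting every cell the same gave 2 higher in immature granule neurons, 1 lower in Slc17a7 neurons and 0 lower in Cajal-Retzius cells. With doublets kept, 0 were higher in astrocytes and 0 lower in Cajal-Retzius cells. A minimum of 10 UMIs gave 2 higher in immature granule neurons and 2 lower in Cajal-Retzius cells, and median scaling 1 lower in Slc17a7 neurons. In oligodendrocyte progenitors 1 was lower with the stricter filter, doublets kept, 1 more marker and cells weighted the same, and 0 with thinned markers and at 2-fold. In microglia and macrophages 3 were higher with 1 more marker, 2 at 2-fold and 0 with thinned markers, where 2 were lower. No paired analysis was possible because each genotype has 1 library and the labels give no replicate numbers. Depth limits Nefh most, and Nefl in progenitors.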

Other observations

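Cells gated by haemoglobin and Alas2 as erythroid (38 control and 57 Setdb1_cKO cells) also carried RNA of the neuronal genes. Stmn2 was at 513 and 1307 CPM in them, a ratio of 2.55 (2.04 to 3.20), Mapt at 333 and 728 CPM, Tubb3 at 504 and 651 CPM, and Dcx at 371 and 433 CPM, while Nefl had 0 and 3 UMIs. Their median depths were 4820.0 and 2139 UMIs. GABAergic neurons (20 and 53 cells) held Tubb3 at 1329.7 and 1210.1 CPM, with intervals that overlapped those of neuroblasts, and Mapt at 1902 and 1864 CPM, above neuroblasts and immature granule neurons with no overlap. They had 1 and 7 UMIs of Nefl. Among genes chosen after their values were seen, astrocytes gave the peripheral neuron filament Prph at 6 and 37 UMIs, a ratio of 7.18 (3.00 to 20.8), and Synm at 32 and 81 UMIs, a ratio of 2.95 (1.94 to 4.59).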
